A study of Mus musculus with 6 samples.

Results

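The 52 genes described here lie on mouse chromosome 11 and were listed by name because earlier work on these libraries had shown many of them at a higher level in the edited clones than in the unedited ones. They are 52 of the 31053 gene names counted in every library, all protein coding, and all 52 passed the filter on low counts that left 14900 genes for testing. Because that contrast chose them, their levels against WT are given as a description, and nothing is read from tests on them. They are set beside measures that the choice did not use: the 1150 other tested genes of chromosome 11, the other chromosomes, and cells within the WT libraries. The question asked of them is whether their shift is that of a change in chromosome dose. DNA copy number was not measured in these libraries.

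The cells were derived from a mouse embryonic stem cell line, HB9::GFP, that carries a green fluorescent reporter driven by the promoter of the motor neuron gene Mnx1 (HB9). They had been taken along a motor neuron protocol to embryoid bodies, free-floating aggregates, at day 6. WT was wild type, DeltaSP was lncMN2_SP-/- and KO was lncMN2-/-; both edits had been made with CRISPR/Cas9 at lncMN2, the X-linked noncoding locus annotated as 5330434G04Rik. Every genotype was represented by 2 libraries, each from 1 clone, so that the reporter and the differentiation protocol were shared by all 6 libraries and p-values measure the spread between clones.

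Cells normally hold an equal number of copies of every autosome, and messenger RNA from most genes scales roughly with the number of gene copies. A cell that gains a chromosome therefore tends to make more RNA from genes all along it, while a regulated pathway moves genes wherever they lie. Gains of whole chromosomes, chromosome 11 among them, are known to recur in cultured mouse embryonic stem cells. The listed genes have varied functions: they include ribosome, chaperonin, proteasome and nuclear pore subunits, histone H3.3, STAT transcription factors, metabolic enzymes and gamma-actin. Whether some of them share a pathway was not tested.

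Droplet libraries held 24191242 to 49061693 unique molecular identifiers (UMIs, one per captured transcript molecule), and 1612 to 4499 cells per library were kept. WT1 was shallower per cell, with a median of 4157 UMIs against 11898.5 to 15112 in the other 5 libraries. Any pair of libraries shared 3 to 11 cell barcodes. The transcript 5330434G04Rik stood at 37.4 and 34.8 CPM in WT, 22.4 and 23.3 in DeltaSP and 0.124 and 0.1704 in KO, in the order of clone 1 and clone 2. CPM, here and below, is UMIs of a gene per 1e+06 UMIs of a library's summed cells, after TMM scaling. By clusters named from marker genes, 26.5% to 48.2% of kept cells fell in progenitor-like and 20.3% to 33.5% in neuron-like clusters.

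In all 4 edited libraries the listed genes stood above WT as a group. A gene's relative shift is its log2 difference in CPM (with 0.5 added) from the WT mean, less the median of the same difference over the 200 tested genes of other chromosomes nearest to it in mean level, so that 0 means that it moved like genes of similar abundance elsewhere. The median relative shift of the 52 genes was 0.45 in DeltaSP1, 0.45 in DeltaSP2, 0.48 in KO1 and 0.54 in KO2, which are 1.36-fold to 1.46-fold. It was above 0 for 50, 51, 49 and 46 of the 52 genes in those libraries. Between the WT clones the median was -0.07 (WT1 minus WT2), with 22 of 52 genes above 0. As a yardstick, 3 copies in place of 2 would give a shift of 0.58 if RNA followed dose in full.

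The shift was not limited to the listed genes. The 1150 other tested genes of chromosome 11 had a median relative shift of 0.37 in DeltaSP1, 0.37 in DeltaSP2, 0.35 in KO1 and 0.37 in KO2, and of 0.07 between the WT clones. Every one of the 19 other chromosomes stayed between -0.09 and 0.04 in each edited library. Between WT1 and WT2 the other chromosomes ranged from -0.05 to 0.13, with chromosome 13 the farthest from 0. With 2 clones against 2, an exact two-sided permutation test cannot give a p below 0.33, so no p is given for these medians.

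**Figure D1:**
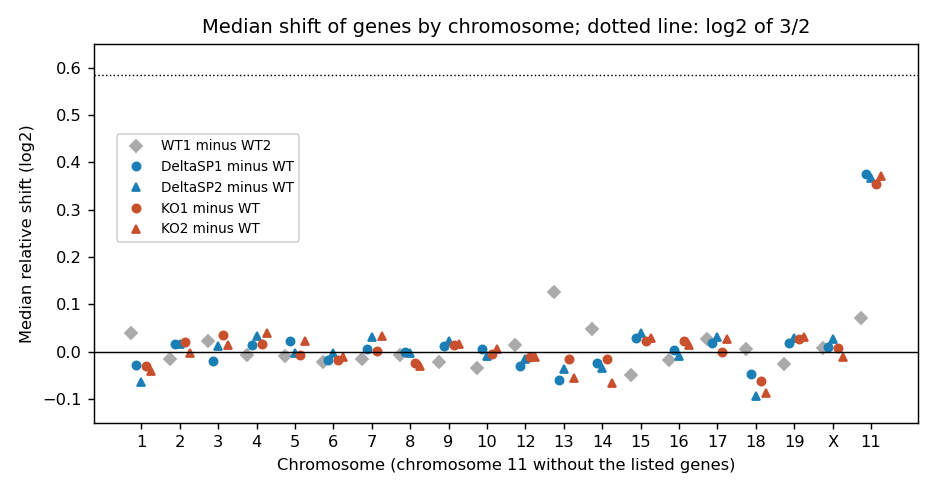
Median relative shift (log2, y axis) of the tested genes of each chromosome (x axis), with the listed genes left out of chromosome 11; circles and triangles are the 2 clones of DeltaSP (blue) and KO (orange) against the WT mean, grey diamonds are WT1 minus WT2, and the dotted line is the log2 of 3/2. The 4 edited clones sit at 0.35 to 0.37 on chromosome 11 and between -0.09 and 0.04 on every other chromosome.

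The higher level extended along the chromosome. In 13 windows of 10 Mb over chromosome 11, the median of the unlisted genes was above 0 in all 13 windows in each edited library, from 0.18 in the lowest window of DeltaSP2 to 0.45 in the highest of KO2. Windows that hold no listed gene were included: from 0 to 10 Mb the median was 0.33 in KO and 0.36 in DeltaSP over 75 genes, and from 60 to 70 Mb it was 0.44 and 0.42 over 137 genes. Between the WT clones the windows ranged from -0.06 to 0.32 (WT1 minus WT2). The listed genes fall into 7 blocks, from Wdr92 and Pno1 at chr11:17182107-23298249 to Foxk2 at the distal end of chr11:117809668-121309896 (GRCm38). The distal block of 18 genes, Tk1 to Foxk2, had medians of 0.59 in KO and 0.56 in DeltaSP, and its median between the WT clones was -0.41 (WT1 minus WT2).

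In edgeR's quasi-likelihood test with Benjamini-Hochberg adjustment over all 14900 genes, 10 of the 52 listed genes were called higher in KO than in WT and 0 lower, where 2.81% of all tested genes were called higher and 7.52% in either direction. They were Pno1, Tlcd1, Phb, Kpna2, Nup85, Syngr2, Tk1, Socs3, Rptor and Chmp6. DeltaSP against WT gave 2 calls, Pno1 and Tk1, both higher, beside 0.289% of all genes called higher and 0.356% in either direction. Nothing is read from these counts, since the same contrast chose the genes. The KO count fell without WT1, KO1, KO2 or either DeltaSP clone and rose without WT2. The DeltaSP count rose without WT2 and fell without any other library. Calls over all genes moved in the same directions. Of the 1150 unlisted genes of chromosome 11, which the choice left aside, 164 were called higher in KO and 20 lower, and 10 higher and 1 lower in DeltaSP. Both clones lay above both WT clones for 38 of the 52 listed genes in KO, beside 30.1% of all genes, and below both for 2, beside 29.3%. The same count above WT was 37 in DeltaSP, beside 24.9%. In 33 of the 52 the lowest edited library stood above the higher WT library. The share of all tested genes was not taken for that count, so nothing is read from it.

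Pno1 and Tk1, called in both edits, lie about as far apart as the list reaches, and their promoters are shown for the simple elements they hold. The windows below run from 250 bases before to 50 after the annotated start (RefSeq, GRCm38.p6), 5′ to 3′ on the gene's own strand, with GC boxes (GGGCGG) and CCAAT boxes (CCAAT) in capitals on either strand. Pno1 is at chr11:17211540-17211839 and Tk1 at chr11:117825965-117826264, both on the minus strand.
Pno1: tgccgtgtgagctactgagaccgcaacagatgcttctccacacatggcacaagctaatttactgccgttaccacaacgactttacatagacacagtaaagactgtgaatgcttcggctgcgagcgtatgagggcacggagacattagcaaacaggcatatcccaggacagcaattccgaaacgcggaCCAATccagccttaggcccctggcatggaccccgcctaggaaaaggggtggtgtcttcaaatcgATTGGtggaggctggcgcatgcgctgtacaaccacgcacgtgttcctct
Tk1: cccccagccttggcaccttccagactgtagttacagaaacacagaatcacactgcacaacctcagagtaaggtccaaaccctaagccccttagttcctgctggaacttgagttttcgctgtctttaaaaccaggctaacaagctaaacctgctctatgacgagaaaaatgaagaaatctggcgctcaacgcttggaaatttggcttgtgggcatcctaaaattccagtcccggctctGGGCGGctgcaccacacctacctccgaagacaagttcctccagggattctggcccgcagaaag
The Pno1 window held 2 CCAAT boxes and 0 GC boxes, and the Tk1 window 1 GC box and 0 CCAAT boxes, so that the pair shared neither. A promoter window was found for 46 of the 52 listed genes. GC boxes were in 32 of the 46 (69.6%), against 64.6% of 870 unlisted chromosome 11 promoters and 64.4% of 10250 on other chromosomes. CCAAT boxes were in 22 (47.8%), against 39.4% and 39.1%, and TATA boxes (TATAAA, either strand) in 3 (6.52%), against 6.90% and 6.95%. A match is a description of letters and not a site.

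Of the genes for protein synthesis, folding and RNA handling, 6 are described here, and all stood above WT without overlap. Over all tested genes, 30.1% did so in KO and 24.9% in DeltaSP. The genes were listed on this contrast, so nothing is read from that count. Nufip2, Unk, Helz, Usp36 and Wdr92, with related functions, are given further below, and Nufip2 overlapped with WT. Pno1, an assembly factor of the small ribosomal subunit, stood at 51.2 and 54.8 CPM in WT, 105 and 102 in DeltaSP and 105 and 98.2 in KO. Cct4, a subunit of the chaperonin that folds actin and tubulin, stood at 400.0 and 337 CPM in WT, 455 and 496 in DeltaSP and 502 and 501 in KO. Mrps7, a protein of the mitochondrial ribosome, stood at 209.7 and 147 CPM in WT, 249.8 and 266 in DeltaSP and 264 and 240.0 in KO. In all of these genes every edited library lay above both WT libraries, with relative shifts of 0.91, 0.55 and 0.6003 in KO and 0.96, 0.48 and 0.62 in DeltaSP. Eif4a3, the helicase of the exon junction complex, stood at 168 and 118 CPM in WT, 212 and 240.2 in DeltaSP and 203 and 206 in KO. Ddx5, an RNA helicase, stood at 1009.8 and 954 CPM in WT, 1083 and 1043 in DeltaSP and 1058 and 1047 in KO. Srsf2, a splicing factor, stood at 579 and 569 CPM in WT, 699.6 and 746 in DeltaSP and 757 and 714 in KO. These 3 genes also did not overlap with WT, and Ddx5 moved least, at 0.41 in KO and 0.32 in DeltaSP.

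Genes of protein turnover stood higher on average but several overlapped with WT. Psmb3, a subunit of the proteasome core, stood at 640.2 and 505 CPM in WT, 711 and 821 in DeltaSP and 677 and 489 in KO. Psmd12, of the proteasome lid, stood at 309 and 201 CPM in WT, 292 and 335 in DeltaSP and 292 and 302 in KO. Sumo2, a small protein modifier, stood at 1597 and 1279 CPM in WT, 1436 and 1543 in DeltaSP and 1675 and 1570.4 in KO. KO2 lay below both WT libraries for Psmb3, and WT1 lay above 3 of the 4 edited libraries for Psmd12 and Sumo2, although their relative shifts in KO were 0.35 and 0.52. Spop, a substrate adaptor of ubiquitin ligases, stood at 133 and 124 CPM in WT, 151 and 128 in DeltaSP and 161 and 156 in KO. Smurf2, a ubiquitin ligase, stood at 28.2 and 22.7 CPM in WT, 30.8 and 30.4 in DeltaSP and 32.1 and 29.8 in KO. Nfe2l1, a transcription factor of proteasome genes, stood at 76.98 and 73.7 CPM in WT, 84.96 and 84.5 in DeltaSP and 91.9 and 81.99 in KO. Their shifts ran from 0.16 (Spop, DeltaSP) to 0.37 (Spop, KO). Usp36, a nucleolar deubiquitinase, had shifts of 0.0071 in KO and 0.33 in DeltaSP.

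The nuclear transport genes spread widely. Xpo1, the export receptor, stood at 131 and 102 CPM in WT, 118 and 122 in DeltaSP and 147 and 146 in KO. Kpna2, an importin alpha, stood at 40.3 and 105 CPM in WT, 160.0 and 155 in DeltaSP and 196 and 265 in KO. Nup85, a scaffold protein of the nuclear pore, stood at 39.1 and 49.3 CPM in WT, 78.8 and 88.4 in DeltaSP and 85.3 and 88.6 in KO. Kpna2 had the highest relative shift of the 52 in KO, 1.88, but its WT clones were -1.49 apart (WT1 minus WT2), whereas the edited libraries of Nup85 lay within 78.8 to 88.6 CPM, with shifts of 0.97 in KO and 0.91 in DeltaSP.

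Chromatin and transcription genes held several that did not follow the group. H3f3b, which encodes the replacement histone H3.3, stood at 4634 and 3049 CPM in WT, 4249.9 and 4496 in DeltaSP and 4878 and 4205 in KO. Cbx1, heterochromatin protein 1 beta, stood at 417 and 257 CPM in WT, 308 and 391 in DeltaSP and 345 and 339 in KO. Supt6, a histone chaperone of elongating RNA polymerase, stood at 107 and 54.8 CPM in WT, 70.9 and 80.3 in DeltaSP and 67.9 and 56.2 in KO. Supt6 was among the 3 lowest listed genes in both contrasts, at -0.34 in KO and -0.033 in DeltaSP, and its WT clones were 0.96 apart (WT1 minus WT2). Med1, a Mediator subunit, stood at 72.7 and 53.7 CPM in WT, 78.6 and 76.3 in DeltaSP and 87.2 and 86.6 in KO. Cdk12, a kinase of the polymerase tail, stood at 121 and 52.5 CPM in WT, 75.99 and 100.3 in DeltaSP and 94.2 and 78.7 in KO. Foxk2, a forkhead factor, stood at 53.6 and 77.1 CPM in WT, 89.3 and 75.8 in DeltaSP and 89.7 and 90.8 in KO. WT1 lay highest of all 6 libraries for Cbx1, Supt6 and Cdk12, while every edited library lay above both WT libraries for Med1. Nufip2, which binds the fragile X protein, stood at 85.8 and 63.5 CPM in WT, 84.1 and 87.7 in DeltaSP and 94.5 and 80.6 in KO, and WT1 lay within the range of the edited libraries. Jmjd6, a dioxygenase, and Unk and Helz, RNA-binding proteins, had shifts of 0.34, 0.55 and 0.31 in KO and 0.22, 0.53 and 0.21 in DeltaSP.

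Among the signalling genes whose library values are given here, all but Stat5b stood above WT in every edited library. Over all tested genes, 30.1% stood above WT without overlap in KO and 24.9% in DeltaSP. The genes were listed on this contrast, so nothing is read from this. Stat3, a cytokine-activated transcription factor, stood at 14.1 and 18.6 CPM in WT, 26.5 and 27.5 in DeltaSP and 19.05 and 22.1 in KO. Stat5b, its relative in the same block, stood at 7.59 and 9.93 CPM in WT, 10.9 and 10.4 in DeltaSP and 9.31 and 14.5 in KO. Socs3, the feedback inhibitor of STAT3 signalling, stood at 7.82 and 15.6 CPM in WT, 20.04 and 23.9 in DeltaSP and 24.9 and 34.9 in KO. All 4 edited libraries lay above both WT libraries for Stat3 and Socs3, whereas KO1 fell between the WT libraries for Stat5b. Rptor, the scaffold of the growth kinase complex mTORC1, stood at 26.5 and 23.8 CPM in WT, 36.8 and 33.8 in DeltaSP and 37.1 and 40.4 in KO. Csnk1d, casein kinase 1 delta, stood at 111 and 116 CPM in WT, 146 and 154 in DeltaSP and 141 and 156 in KO. Traf4, a receptor adaptor, stood at 232 and 303 CPM in WT, 359 and 323 in DeltaSP and 354 and 311 in KO. None of these 3 overlapped between the edited and the WT libraries. Grb2, an adaptor of growth factor receptors, had shifts of 0.38 and 0.399 in KO and DeltaSP.

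Metabolic and mitochondrial genes held several of the larger shifts. Tk1, thymidine kinase of DNA precursor salvage, stood at 39.03 and 46.2 CPM in WT, 87.5 and 108 in DeltaSP and 108 and 117 in KO. Phb, prohibitin of the mitochondrial inner membrane, stood at 132 and 182 CPM in WT, 277 and 261 in DeltaSP and 334 and 334 in KO. Tlcd1, which acts on membrane lipid composition, stood at 14.8 and 12.2 CPM in WT, 23.3 and 31.05 in DeltaSP and 33.5 and 39.4 in KO. Every edited library lay above both WT libraries in each, with shifts of 1.36, 1.16 and 1.37 in KO and 1.17, 0.85 and 0.98 in DeltaSP. Fasn, fatty acid synthase, was at 0.62 and 0.61, Pgs1, an enzyme of cardiolipin synthesis, at 0.49 and 0.41, and P4hb, protein disulfide isomerase, at 0.33 and 0.44. Cant1, a nucleotidase, was at 0.598 and 0.57. Afmid, a formamidase, had a mean of 0.934 CPM, the lowest of the list, which leaves its shift of 1.03 in KO and 0.71 in DeltaSP imprecise.

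Nme1 and Nme2, adjacent and near-identical nucleoside diphosphate kinase genes, moved apart. Nme1 stood at 1079 and 660.2 CPM in WT, 906 and 1042 in DeltaSP and 569.8 and 421 in KO. Nme2 stood at 44.1 and 159 CPM in WT, 384 and 257 in DeltaSP and 449 and 173 in KO. Nme1 was lowest of the 52 in KO, at -0.59, and Nme2 highest in DeltaSP, at 1.98, and between the WT clones they differed by 0.57 and -2.04 in turn. How reads shared by the pair were assigned is not given in the sources used here, so both values are uncertain; the sum of both genes was 1123 and 819 CPM in WT, 1291 and 1299 in DeltaSP and 1019 and 594 in KO. Pno1 lies within the span of Wdr92, and Tk1 overlaps the start of Afmid, each on the opposite strand, and reads of such pairs may likewise be hard to tell apart. Wdr92, a co-chaperone, had shifts of 0.61 and 0.43.

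Cytoskeletal and membrane genes completed the list. Actg1, cytoplasmic gamma-actin and the most abundant listed gene, stood at 3145 and 5106 CPM in WT, 6205 and 6122 in DeltaSP and 5369 and 5509 in KO. Arhgdia stood at 339.6 and 474 CPM in WT, 632 and 617 in DeltaSP and 581 and 609.7 in KO. Syngr2, a vesicle membrane protein, stood at 16.7 and 25.6 CPM in WT, 39.3 and 49.8 in DeltaSP and 49.3 and 59.4 in KO. In all of these the 4 edited libraries lay above both WT libraries, and WT1 was below WT2, with a WT1 minus WT2 shift of -0.91 for Actg1. Flot2, a flotillin of membrane rafts, stood at 40.3 and 57.7 CPM in WT, 65.1 and 61.96 in DeltaSP and 56.5 and 66.3 in KO. Becn1, an autophagy regulator, stood at 60.3 and 65.6 CPM in WT, 91.04 and 81.5 in DeltaSP and 87.95 and 80.1 in KO. Cyth1, an exchange factor of Arf GTPases, stood at 19.996 and 27.3 CPM in WT, 27.6 and 18.8 in DeltaSP and 24.8 and 21.8 in KO. Cyth1 lay near 0, at -0.008 in KO and -0.022 in DeltaSP, and so did Timp2, an inhibitor of matrix metalloproteinases, which stood at 40.8 and 41.3 CPM in WT, 45.3 and 40.7 in DeltaSP and 40.6 and 40.2 in KO with shifts of -0.024 and 0.079. Chmp6, of the ESCRT-III membrane-cutting machinery, was at 0.69 in KO and 0.55 in DeltaSP. Over the 52 genes the range of the shift from the first to the third quartile was 0.33 to 0.64 in KO and 0.28 to 0.68 in DeltaSP.

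**Figure D2:**
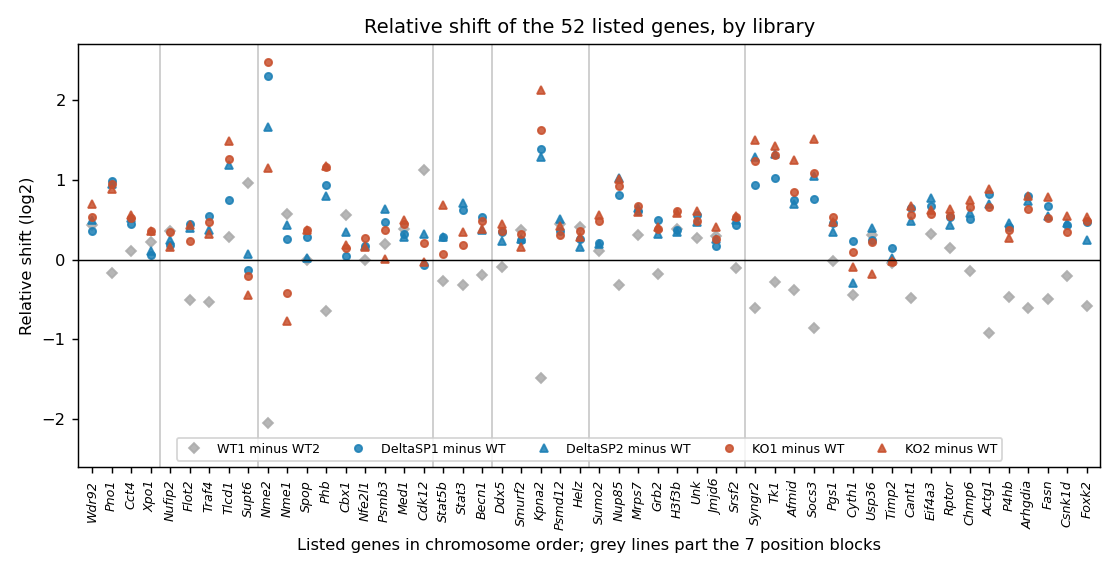
Relative shift (log2, y axis) of each of the 52 listed genes in chromosome order (x axis) for the 2 DeltaSP clones (blue circle, triangle) and the 2 KO clones (orange circle, triangle) against the WT mean, and for WT1 minus WT2 (grey diamonds); grey lines part the 7 position blocks. Most coloured points lie above 0 in every block, with medians of 0.45 to 0.54 per library, while the grey diamonds lie on both sides of 0.

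Most relatives on other chromosomes stood lower than the listed genes. For 25 listed genes, paralogs or subunits of the same complex encoded elsewhere were tested, 76 gene pairs in all. The listed gene lay above the median of its relatives in 22 of 25 cases in KO and 23 of 25 in DeltaSP, and above the single relative in 71 and 73 of the 76 pairs. The median over these 25 genes was 0.46 in KO and 0.41 in DeltaSP, where the relatives' medians centred on -0.03 and 0.00. The pairs share libraries and some relatives belong to 1 complex, so the counts are not independent, and the 25 genes were chosen on this contrast, so these counts are a description. Within WT, between the cell ranges described below, the listed gene lay above its relatives' median in 24 of 25 cases in WT1 and 23 of 25 in WT2.

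Actb, which encodes beta-actin, stood at 3951 and 3466 CPM in WT, 2814 and 3299.8 in DeltaSP and 2286 and 2039 in KO, lower in every edited library than in WT, with shifts of -0.45 in KO and -0.101 in DeltaSP, against 0.78 and 0.81 for gamma-actin. H3f3a, the other H3.3 gene, which encodes the same protein, stood at 2990.1 and 2495 CPM in WT, 2224 and 2067 in DeltaSP and 2441 and 2317 in KO, with shifts of 0.13 and -0.17 against 0.605 and 0.404 for H3f3b. Both actins and both H3.3 genes have processed copies elsewhere in the genome, and how shared reads were assigned is not given. In the chaperonin, the 6 other subunits tested ranged from -0.074 to 0.31 in KO, all below Cct4 at 0.55. In the proteasome, 8 other regulatory subunits ranged from -0.16 to 0.16, all below Psmd12 at 0.35, and 11 of 12 core subunits lay below Psmb3 in KO and 12 of 12 in DeltaSP. The 7 nuclear pore relatives of Nup85 were themselves higher, from 0.1998 to 0.498 in KO, yet all stayed below Nup85.

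Single relatives were also lower, with a few exceptions. In KO and DeltaSP in turn, Csnk1e had shifts of -0.46 and -0.44, Ddx17 of -0.23 and -0.16, Spopl of -0.32 and -0.38 and Cyth2 of -0.48 and -0.37. Foxk1 was at 0.195 and -0.014, Flot1 at -0.065 and 0.017, Smurf1 at -0.19 and -0.042, Syngr1 at -0.089 and -0.023 and Phb2 at 0.44 and 0.34. All of these lay below their chromosome 11 relative. The exceptions in KO were Nfe2l2, at 0.56 against 0.21 for Nfe2l1, Timp1 and Timp3, from 0.37 to 0.85 against -0.024 for Timp2, and Cdk13, at 0.081 against 0.071 for Cdk12. Relatives of larger families, in KO, had medians of -0.031 (4 importins, Kpna2), -0.061 (7 mitochondrial ribosome proteins, Mrps7), -0.11 (9 Mediator subunits, Med1), -0.029 (Cbx3 and Cbx5), -0.59 (Magoh and Rbm8a, Eif4a3) and 0.095 (Mtor and Mlst8, Rptor).

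**Figure D3:**
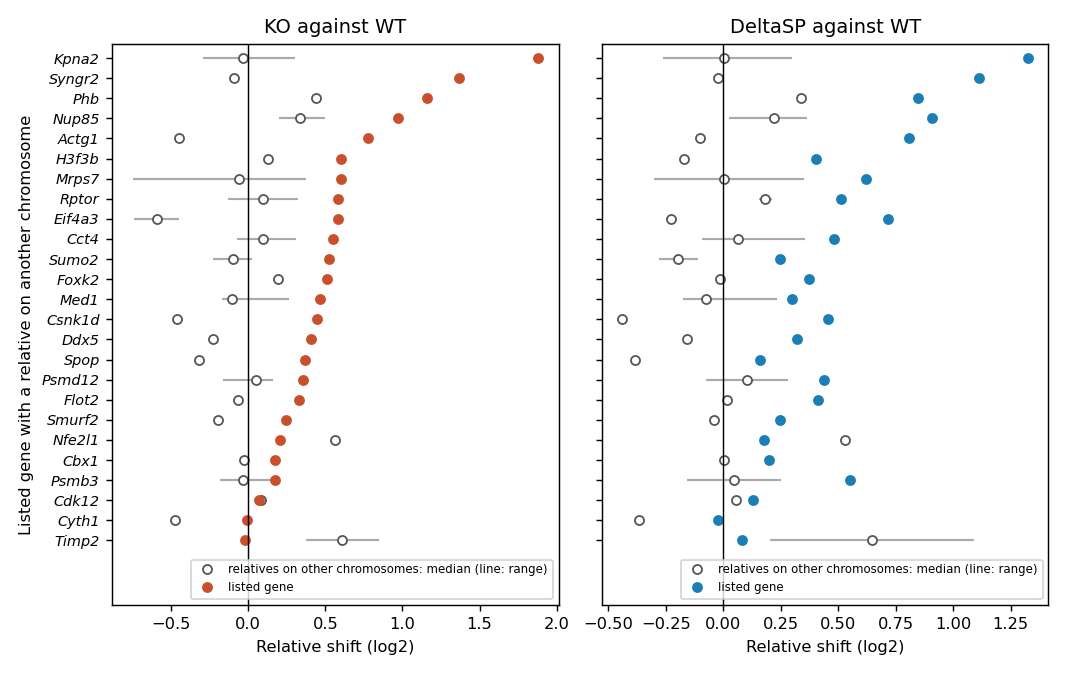
Relative shift (log2, x axis) of 25 listed genes (coloured points) beside the median (open circles) and range (grey lines) of their paralogs or complex partners on other chromosomes, in KO (left) and DeltaSP (right) against WT. The coloured point lies to the right of the open circle for 22 of 25 genes in KO and 23 of 25 in DeltaSP; Timp2 and Nfe2l1 are exceptions in both.

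Some unlisted genes of chromosome 11 went further than the rest or the other way. Among those with at least 20 CPM in the higher genotype and no overlap between libraries, Trim25, a ubiquitin ligase of antiviral sensing, stood at 6.797 and 6.75 CPM in WT, 42.4 and 31.6 in DeltaSP and 16.7 and 33.3 in KO. Prr11, a cell cycle gene, stood at 10.03 and 14.95 CPM in WT, 25.2 and 24.5 in DeltaSP and 29.7 and 35.1 in KO. Hmga1b, a near-identical copy of a chromatin gene whose counts are uncertain for that reason, stood at 20.6 and 106 CPM in WT, 115 and 153 in DeltaSP and 107 and 214 in KO. These had the largest log2 differences in KO, of which Trim25 (1.89 ± 0.33 (SE), edgeR adjusted p = 0.031) and Prr11 (adjusted p = 0.026) passed edgeR's test and Hmga1b (adjusted p = 0.22) did not. In DeltaSP the largest were Rnf213, an interferon-induced gene, with a log2 change of 3.98 ± 0.55 (SE) and edgeR adjusted p of 0.047, Trim25 at 2.45 ± 0.33 (SE) and adjusted p of 0.047 by edgeR, and Cdc6, a replication licensing factor, at 1.23 ± 0.19 (SE) and adjusted p of 0.068 by edgeR. Rnf213 was also among the 10 leading genes of cluster 15, which was led by the interferon-induced genes Oasl2 and Bst2 and counted as progenitor-like. That cluster held 0 cells in both WT libraries, 98 and 85 in DeltaSP and 3 and 20 in KO, and its part in the levels of Trim25 and Rnf213 was not tested.

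Grb10, an imprinted growth inhibitor near the proximal end, went the other way in both edits. It stood at 46.8 and 65.4 CPM in WT, 10.9 and 7.53 in DeltaSP and 9.804 and 6.33 in KO, a log2 change of -2.80 ± 0.29 (SE) in KO (edgeR adjusted p = 0.02) and -2.61 ± 0.29 (SE) in DeltaSP (edgeR adjusted p = 0.029). Within the Hoxb cluster, which patterns the body axis, the antisense transcript Hoxb5os stood at 168 and 105 CPM in WT, 46.6 and 18.02 in DeltaSP and 15.5 and 5.31 in KO. Hoxb9 stood at 28.04 and 18.7 CPM in WT, 9.18 and 7.29 in DeltaSP and 6.72 and 3.72 in KO. Both fell in KO (edgeR adjusted p = 0.029 and 0.026) and did not pass in DeltaSP (edgeR adjusted p = 0.18 and 0.15). Hoxb6 and Hoxb8 had relative shifts of -1.02 and -0.54 in KO without passing, Hoxb5 of -0.53, and Hoxb1, Hoxb2, Hoxb3, Hoxb4, Hoxb7 and Hoxb3os lay between -0.21 and 0.899; Hoxb1 had a mean of only 1.22 CPM. Hoxb5os overlaps Hoxb5 and Hoxb6 on the opposite strand, so its reads and theirs may be hard to tell apart.

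Single cells of the WT libraries fell into a lower and a higher range of chromosome 11 RNA. For each cell with at least 3000 UMIs, thinned to 3000, the share of autosomal UMIs that came from unlisted chromosome 11 genes was taken, with the 52 listed genes left out. Over the WT cells this share had a low and a high mode, at 8.83% and 12.54%, with a minimum between them at 10.93%, and the ratio of the modes, relative to all other autosomes, was 1.48. Counting error alone would spread cells by 0.54 points around the low mode. Cells below and above the minimum are called the low and the high range; they are ranges of a score and not cell types, and were set from these data.

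In WT1, 36.1% of cells lay in the high range (1286 of 3563, exact 95% interval 34.5% to 37.7%), and in WT2 15.4% (232 of 1511, 13.6% to 17.3%). The share was 95.9% in DeltaSP1, 97.1% in DeltaSP2, 96.4% in KO1 and 92.9% in KO2. The intervals cover counting error only. Median shares in the high range were 12.5% and 12.7% in WT1 and WT2 and 12.4% to 12.9% in the edited libraries. Within 0.5 points of the cut lay 4.91% of WT1 and 3.71% of WT2 cells, and 4.79% to 12.3% of cells in the edited libraries. Cells too shallow for this measure numbered 936 in WT1 and 56 to 201 in the other libraries. No doublet caller was run, and the part of doublets in these shares was not tested.

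**Figure D4:**
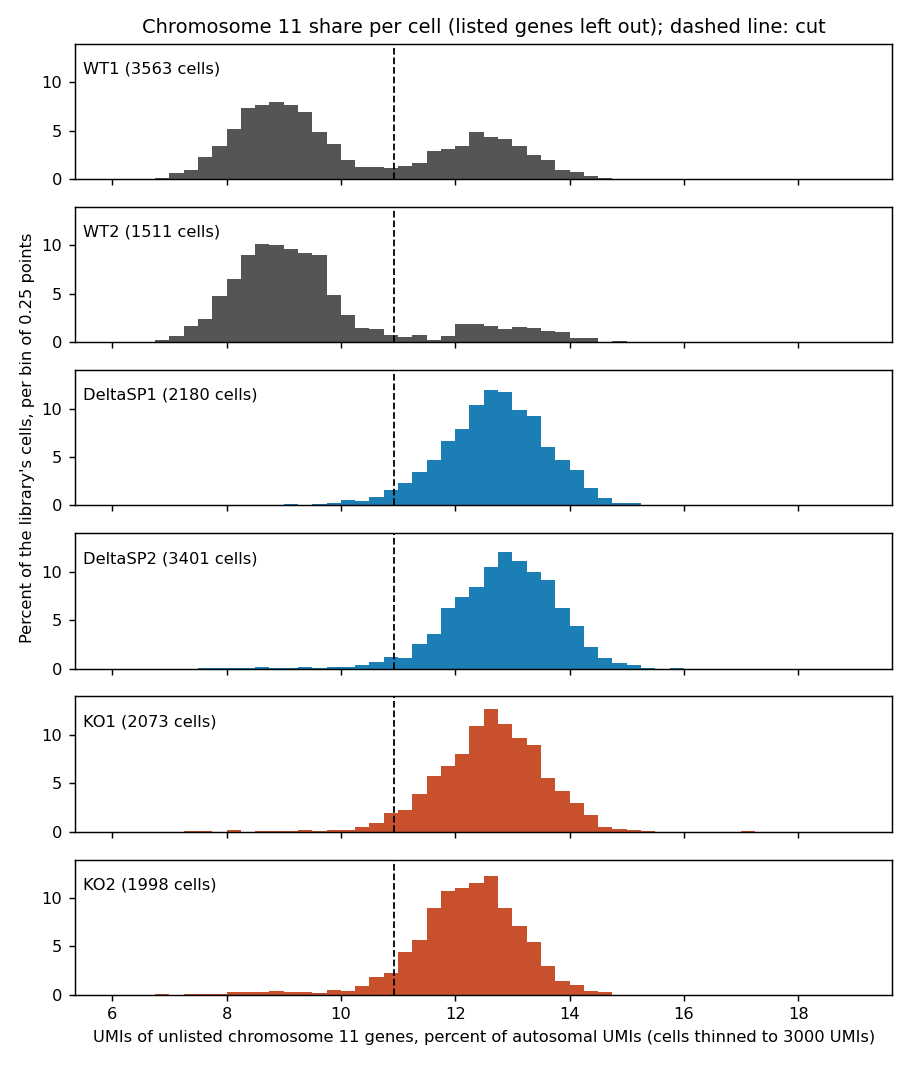
Histograms of the share of autosomal UMIs from unlisted chromosome 11 genes (x axis, percent) over the cells of each library (y axis, percent of cells per bin), with the cut at 10.93% dashed. Both WT libraries show a low and a high peak, with 36.1% and 15.4% of cells above the cut, and each edited library shows a single peak at the place of the high one.

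Transcripts of other chromosomes were also set side by side in high-range cells of WT and edited libraries. Cd2, a gene on chromosome 3 chosen after its values were seen, stood at 60.5 to 75.4 CPM (here without TMM scaling) in high-range cells of the 4 edited libraries. It had 0 UMIs among 6851217 in the high range of WT1 and 0 among 4556355 in WT2, which allows up to 0.438 and 0.658 CPM. The targeted transcript 5330434G04Rik was at 21.3 and 18.2 CPM in those WT cells, beside 22.2 and 20.6 CPM in high-range cells of DeltaSP1 and DeltaSP2 and 0.104 and 0.138 in those of KO1 and KO2. For this transcript the WT cells thus differed from KO but were close to DeltaSP. In low-range WT cells Cd2 had 5 UMIs in WT1 and 0 in WT2. There the targeted transcript was at 41.2 and 36.8 CPM. Its relative shift between high-range and low-range cells was -0.87 in WT1 and -0.91 in WT2. Within progenitor-like cells it was -0.29 and -0.40, and within neuron-like cells -0.35 and -0.57. Cell type make-up differed between the ranges, so its values over all cells of a range also carry that difference. Depth per cell moved with the range: median UMIs were 4434 in low-range and 4972.5 in high-range cells of WT1, and 15401 and 17876 in WT2. Cells were thinned to 1 depth to set their range, but the CPM values by range are sums over unthinned cells.

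The proximal and distal parts of the chromosome varied together over WT cells. The genes were split by position so that each part held an equal number of UMIs. Across cells, the shares of the proximal and distal genes of chromosome 11 correlated at r = 0.754 in WT1 (3563 cells) and 0.659 in WT2 (1511 cells), and at -0.0304 to 0.0795 in the edited libraries. For the other 18 autosomes the same value lay between -0.345 and 0.391 over the 6 libraries. Both parts share a cell's library and total, and the value is a description. The spread of the whole-chromosome share was 3.37 and 2.85 times its counting error in WT1 and WT2, against 1.43 to 1.57 times in the edited libraries. Among the other autosomes it was 1.08 to 2.01 times, except for chromosome 19, at 2.63 to 4.09 times over the 6 libraries.

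The listed genes, which did not enter the cut, followed it inside each WT library. Between high-range and low-range cells of the same library their median relative shift was 0.47 in WT1, with 49 of 52 genes above 0, and 0.55 in WT2, with 51 of 52. That is 1.39-fold and 1.47-fold, beside 0.48 and 0.45 for KO and DeltaSP against WT. The other 19 chromosomes stayed between -0.05 and 0.05 in WT1 and between -0.06 and 0.04 in WT2. The listed genes share a chromosome with the genes that set the cut, so nothing particular to them is read from this. Each range is 1 set of cells per library, so there is no test.

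Single genes show it. Pno1 was at 34.4 and 62.9 CPM in the low and high range of WT1 and 45.001 and 89.8 in those of WT2, here without TMM scaling. Nup85 was at 26.2 and 48.2 CPM in the low and high range of WT1 and 41.6 and 74.4 in those of WT2. Tk1 was at 27.7 and 49.8 CPM in the low and high range of WT1 and 37.2 and 81.2 in those of WT2. All 3 were higher in the high range of both libraries, with relative shifts of 0.92 and 1.04, 0.93 and 0.89, and 0.87 and 1.15. H3f3b was at 3406 and 4845 CPM in the low and high range of WT1 and 2714 and 4028 in those of WT2, while H3f3a shifted by -0.38 and -0.44. Tlcd1 had the highest shifts of the 52 in both libraries, 1.15 and 1.73. Several genes that lay near or below 0 in KO lay higher here: Supt6 at 0.44 and 0.47, Cdk12 at 0.47 and 0.74, Usp36 at 0.64 and 0.64, and Nme1 at 0.45 and 0.52. Nme2, among the highest in KO, was at 0.79 and 0.904 here. The 3 lowest were Stat3, Actg1 and Cyth1 in WT1 and Actg1, Ddx5 and Cyth1 in WT2. In all, 49 of the 52 were above 0 in both WT libraries. Of the 52, 46 were above 0 in both WT libraries and also in both edits against WT. The edits are the contrast that chose the genes, so nothing is read from that second count.

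Cell type make-up moved with the range. Neuron-like cells made up 42.5% of low-range and 21.8% of high-range cells in WT1, and 34.5% and 17.2% in WT2, beside 16.3% to 26.8% of high-range cells in the edited libraries. Progenitor-like cells made up 25.9% and 34.2% in WT1 and 31.4% and 38.4% in WT2. The difference was therefore taken again within each class. In progenitor-like cells the median shift of the listed genes was 0.52 in WT1 and 0.58 in WT2, and in neuron-like cells 0.44 and 0.45 over the same 52 genes. Actg1, at -0.12 and -0.077 over all cells, was at 0.37 and 0.32 in progenitor-like and 0.12 and 0.17 in neuron-like cells.

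**Figure D5:**
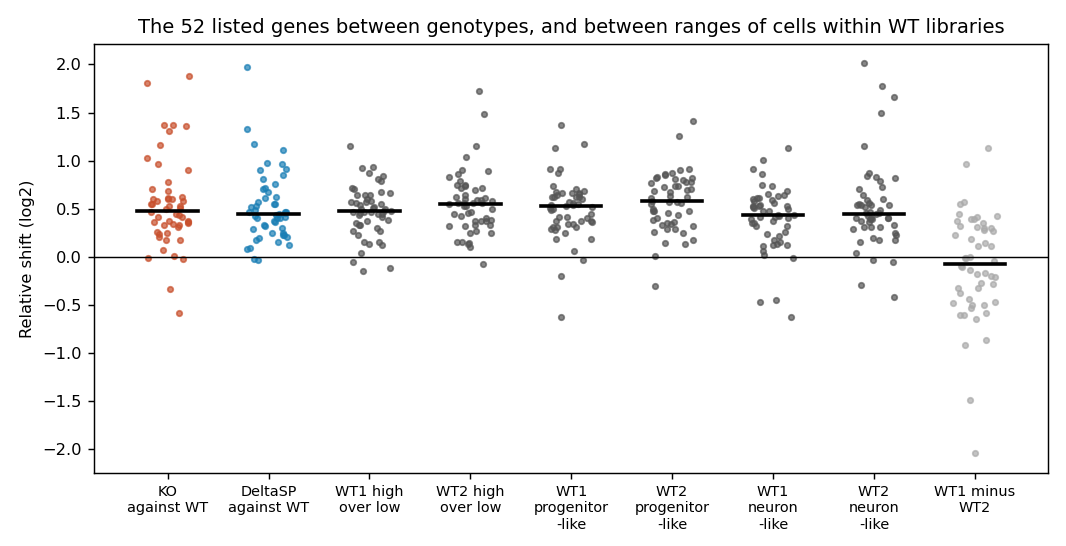
Relative shift (log2, y axis) of the 52 listed genes (points, with horizontal jitter; bars are medians) between genotypes, between high-range and low-range cells of WT1 and of WT2 over all cells and within progenitor-like and neuron-like cells, and between the WT libraries. The medians of the first 8 columns lie between 0.44 and 0.58, and that of WT1 minus WT2 at -0.07.

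High-range cells were rarer among WT neurons. In WT1, 22.5% of neuron-like cells lay in the high range (20.2% to 24.9%) against 42.8% of progenitor-like cells (39.7% to 45.8%), and in WT2 8.32% (6.01% to 11.2%) against 18.2% (14.8% to 21.9%). Neuron-like cells had lower shares in every library, also in the edited ones, with medians of 11.6% to 12.1% against 12.33% to 12.98% in progenitor-like cells. With a cut of its own in each class, 10.91% in progenitor-like and 10.4% in neuron-like cells, which was chosen after seeing the data, the neuron-like share was 25.3% in WT1 and 10.4% in WT2. Most WT1 cells of these classes sat in clusters of their own, 86.0% of progenitor-like cells in cluster 4 and 57.9% of neuron-like cells in cluster 5, while most of those of the other libraries were elsewhere, so shares are compared within a library only. With 2 WT clones the difference between classes was not tested; its direction was the same in both.

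Set against the low-range WT cells alone, the listed genes of the edited libraries stood higher than against the high-range cells. The median shift of the listed genes was 0.59 in KO and 0.61 in DeltaSP against low-range WT cells, and 0.14 and 0.06 against high-range WT cells. For the unlisted genes of chromosome 11 it was 0.50 and 0.51, and 0.05 and 0.06. The unlisted genes set the ranges, so only the values of the listed genes were measured apart from the cut. In the wild-type sum of all cells, WT1 and WT2 mix both ranges in unequal parts.

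Grb10 and the Hoxb genes differed in their course between the ranges. Grb10 was at 46.9 and 24.1 CPM in the low and high range of WT1 and 71.2 and 22.6 in those of WT2, so that it was lower in the high range, with relative shifts of -0.91 and -1.63, and of -1.43 and -2.01 within progenitor-like cells. Hoxb5os was at 103 and 221 CPM in the low and high range of WT1 and 85.2 and 175 in those of WT2, higher in the high range by 1.14 and 1.1004, the opposite of its fall in KO. Hoxb9 shifted by 0.38 and 0.39 between ranges, by 0.11 and 0.07 within progenitor-like cells and by 0.56 and 0.23 within neuron-like cells. Hoxb5 was lower in the high range, at -0.31 and -0.48, and Hoxb6 lay at 0.10 and 0.002. The remaining Hoxb genes lay between -0.01 (Hoxb4, WT2) and 0.65 (Hoxb3os, WT1). Trim25 was higher in the high range, by 1.59 and 1.86, whereas Hmga1b shifted by 0.14 and 0.33.

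KO and DeltaSP differed little from each other in the listed genes. The median relative shift of KO against DeltaSP was 0.04, with 33 of 52 genes above 0, and -0.01 over the unlisted genes of chromosome 11. None of the 52 was called by edgeR, 1 had an unadjusted p under 0.05 and DESeq2 called 1, beside 0.00671% of all tested genes called by edgeR. Both KO libraries lay above both DeltaSP libraries for 16 of the 52, beside 20.8% of all genes, and below both for 10, beside 21.1%. The highest were Kpna2 at 0.55, Socs3 at 0.41 and Tlcd1 at 0.396, and the lowest Nme1 at -0.93, Stat3 at -0.397 and Psmb3 at -0.35. Both edits were set against the same WT libraries, so the likeness of their shifts against WT is not an independent repeat. Among the unlisted genes of chromosome 11, the 3 largest log2 differences without overlap were those of Trp53i13, Sdk2 and Rnft1 upwards and of Hoxb5os, Rnf213 and Rpl38 downwards, and none passed edgeR's test.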

How the data were processed

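The authors deposited unnormalized UMI counts, a gene-by-cell table for each of 6 libraries, which had been made with Cell Ranger 4.0 on mm10, per the submitters' processing notes, with Ensembl release 93, per the series' design text. The labels and the design text name different versions of the 10x 3′ kit. How the counting used strand and multimapped reads is not given in the sources used here. Libraries held 24191242 to 49061693 UMIs, and the shallower WT1 limits the precision of low genes most.

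A cell was kept if it showed 1000 genes or more and no more than 10% of its UMIs were mitochondrial; no doublet caller was run. Clustering used 2000 variable genes, 30 principal components, 15 neighbours and Leiden resolution 0.6 (scanpy 1.11.5, leidenalg 0.10.2, Python 3.11.15). Clusters were named from at least 3 markers of a list; progenitor-like and neuron-like names are rebuilt and may differ from the study's. Counts of kept cells were summed per library and tested with edgeR 4.0.16 (R 4.3.3; quasi-likelihood, TMM, filterByExpr, 1 fit over all 3 genotypes, adjusted p under 0.05 called), and DESeq2 1.42.0 as an alternative. Gene names were placed with GENCODE on GRCm38 for 30416 of 31053. The test was checked on simulated counts with known changes.

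The listed genes, their relatives and the marker lists were chosen with earlier results of these data known, so counts over them support nothing by themselves. Values in every library are given for the 3 most abundant genes of each block, those with relatives on other chromosomes, and the 3 highest and lowest shifts per comparison. Of unlisted genes, those named are the Hoxb genes and Grb10, the targeted transcript, and the 3 largest rises and falls on chromosome 11 with at least 20 CPM in the higher genotype and no overlap. The cell ranges were set after seeing the data. A comparison with relatives is not reported here.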

Additional observations from a re-analysis of the deposited data

Results flagged for a closer look

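Outside the comparisons above, chromosome 5 in 1 edited library differed from the same chromosome in the others. Over the cells of DeltaSP1, the shares of its proximal and distal genes correlated at r = 0.296, above the -0.0133 of WT1 and the -0.0888 of WT2 and above the other 3 edited libraries, which ran from -0.148 to -0.112. The spread of its share was 1.78 times counting error in DeltaSP1 and 1.09 to 1.19 times in the other 5 libraries. Values of this size were not particular to chromosome 5. Chromosome 7 had r = 0.391 in WT1, 0.391 in WT2 and 0.290 in DeltaSP2. The largest spread among autosomes other than 11 and 19 was 1.91 times in WT1, 2.01 in WT2 and 1.74 in DeltaSP2. The cells of a library share its depth and makeup, so the chromosome 5 value is a description of 1 library of 2180 cells.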

How the results depend on the processing

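The median relative shift of the listed genes stayed above 0 in KO and DeltaSP under every alternative run. The genes were listed on this contrast in these libraries, so nothing is read from the sign. Leaving out 1 library at a time gave 0.46 to 0.53 in KO, 0.44 to 0.48 in DeltaSP and 0.038 to 0.081 in KO against DeltaSP. In neuron-like cells alone it was 0.57 in KO and 0.53 in DeltaSP, with 0.45 (KO) and 0.44 (DeltaSP) for the unlisted genes of chromosome 11. Centring on all genes of other chromosomes gave 0.40 and 0.41, and removing a trend with transcript length gave 0.41 in DeltaSP. Against low-range WT cells it was 0.59 and 0.61 and against high-range WT cells 0.14 and 0.061, both added after seeing the data. In the high-range setting the listed genes' median level had an SD of 0.077 between clones of the more variable genotype. The DeltaSP value lies below that SD. The unlisted genes in KO against DeltaSP reversed from -0.01 to 0.0077 in progenitor-like cells. The causes were not tested.

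Calls among the 52 genes depended far more on the setting. In KO they numbered 23 with no filter on low counts, 17 by DESeq2, 2 in progenitor-like and 6 in neuron-like cells, 20 against low-range and 0 against high-range WT cells, and 0 to 18 with 1 library left out. In DeltaSP the same settings gave 16, 9, 0, 0, 7 and 0, and 0 to 14 with 1 library left out. In KO against DeltaSP there was 1 with no filter and 1 by DESeq2. Over all genes, edgeR called 1121, 53 and 1 in the 3 comparisons, no filter gave 3390, 1326 and 422, and DESeq2 gave 2382, 630 and 57. Over all genes in KO, progenitor-like cells gave 262 calls of 12709 tested and neuron-like cells 479 of 12731. Low-range WT cells gave 2580 of 14888 and high-range WT cells 303 of 14815. In DeltaSP the same settings gave 1, 3, 272 and 1 in that order. Calls over all genes thus moved with those of the listed genes, and nothing particular to the listed genes is read from them. With the replicate number as a block, edgeR called 9 listed genes in KO and 0 in DeltaSP, and 22 genes in all in DeltaSP. Deviations of same-numbered clones correlated at 0.12, 0.027 and 0.0039. With 2 clones a genotype, these values cannot tell whether same-numbered clones share more than a number. With a cut of its own, the high-range share of neuron-like cells was 25.3% in WT1. Copy number, 2 clones a genotype and mixed WT ranges limit every value.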
